A study of Homo sapiens with 10 samples.

Results

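The genes described here are those that THP1 cells lacked, or held at a much lower level, while HL60, K562 and SUDHL4 cells all transcribed them. THP1 is a human acute leukaemia line with monocytic features. HL60 is a human promyelocytic leukaemia line, K562 a chronic myeloid leukaemia line that makes erythroid transcripts, and SUDHL4 a human B cell lymphoma line. A gene was taken when it had 5 or more normalised CPM in each of HL60, K562 and SUDHL4 and its log2(value + 1) in THP1 lay at least 2 below the lowest of those 3 lines, which is about 4-fold. Normalised CPM are read counts scaled by the authors in a way that is not given, and all levels below are in this unit. The rule gave 53 genes, out of 7442 that had the level in the other 3 lines and out of 20591 genes in all, so 0.712% of the genes that could be called were called. The genes were chosen by these levels in the 4 pure libraries, so the gaps between THP1 and the other pure lines are a description and carry no test.

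The study made pools of the 4 lines in unstated ratios, and the series holds 1 library of pure THP1, 1 each of pure HL60, K562 and SUDHL4, and 6 mixtures, all sequenced as bulk RNA. Every sample is labelled as wild type, untreated and taken at day 0, and all cells were grown in RPMI medium with fetal bovine serum and antibiotics. Libraries were made with 1 of 2 stranded kits, one for low input of total RNA and one for mRNA, and the labels do not tie a kit to a library. The kit and the line therefore cannot be told apart. Each line is a single established culture sequenced once, so nothing here measures the spread between cultures. The 10 libraries held 24985570 to 36607612 reads, and intervals given with a level are exact 95% Poisson intervals of its reads, which cover counting error only. The summed level of 10 monocyte markers was 3053 in THP1, against 122 in HL60, 15.4 in K562 and 3.30 in SUDHL4. Of these 10 markers, 8 reached 5 in THP1 and FCN1 had 0 reads there. Summed promyelocyte markers were also high in THP1, at 5660 against 16872 in HL60, and all 6 reached 5. Erythroid markers summed to 5.48 in THP1 against 6999 in K562, and B cell markers to 18.0 in THP1 against 5952 in SUDHL4. The 4 measured T and NK cell markers summed to 47.4 in THP1, against 12.4 in HL60, 14.9 in K562 and 5.09 in SUDHL4, with CD3E at 0 reads in THP1.

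A gene transcribed in a promyelocytic, an erythroid and a B cell line is usually one that most blood cells use, rather than a marker of a lineage. The genes found here span nuclear envelope and cytoskeletal proteins, chromatin regulators, enzymes that make amino acids, and mitochondrial proteins. Emerin and filamin A shape the nucleus and the cell cortex, KDM6A opens chromatin for differentiation genes, and aminotransferases and asparagine synthetase supply dividing cells with nitrogen and amino acids.

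The name silent fits only some of the 53 genes. In THP1, 14 were under 1, of which 5 had 0 reads and 4 had 1 to 10 reads. Another 20 lay between 1 and 5, and 19 were at 5 or more. Only 3 kept 50 or more. Their median level was 3.04 in THP1, whereas the median of the lowest level in the other 3 lines was 35.1. Over all 7442 genes with the level, that lowest level had a median of 31.8. The median gap to the lowest other line was -2.44 log2 units, beside 0.16 for all genes with the level. The gap reached 3 log2 units or more in 15 genes and 4 or more in 8. Among HL60, K562 and SUDHL4 the 53 genes spread about as widely as other genes, with a median ratio of the highest to the lowest line of 2.12 against 1.94. The lowest of the 3 was HL60 for 21 genes, SUDHL4 for 17 and K562 for 15. They are therefore called THP1-low genes here.

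**Figure D1:**
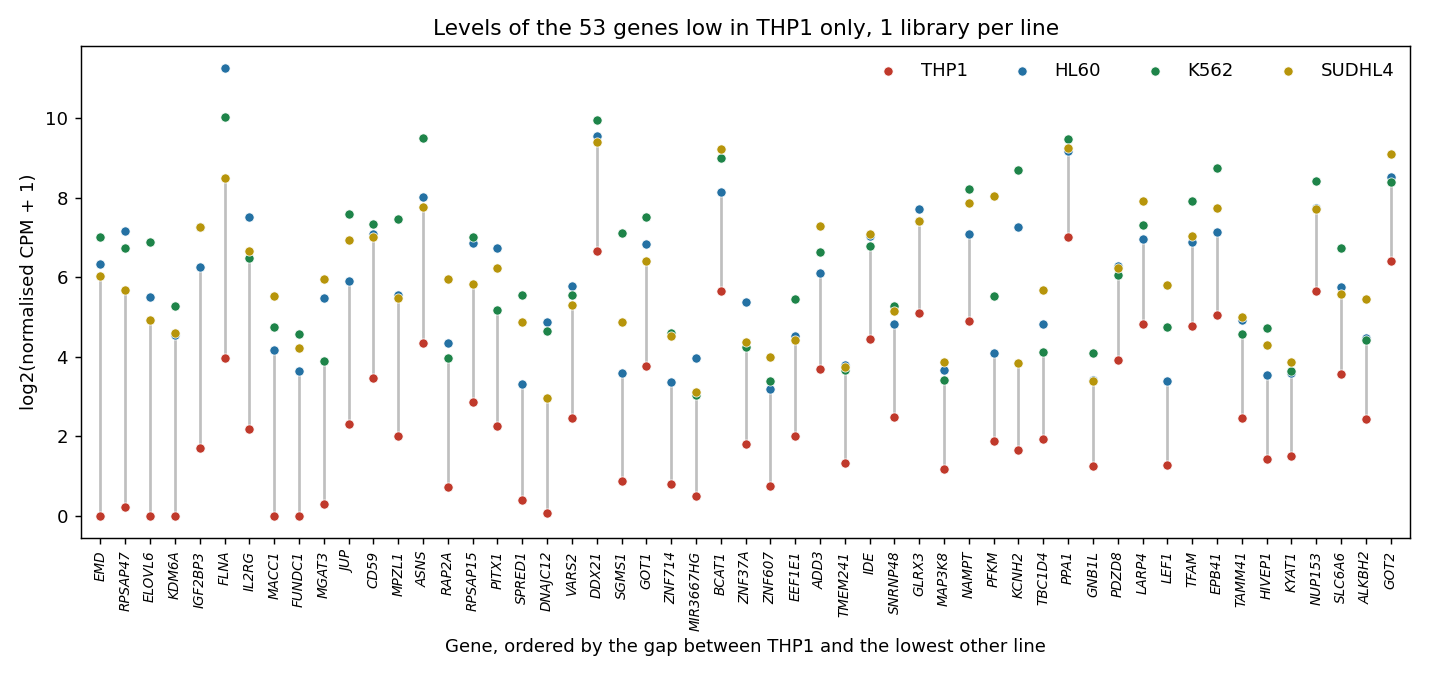
Level of each of the 53 genes in the 4 pure libraries, as log2(normalised CPM + 1), with genes ordered by the gap between THP1 and the lowest other line; each point is 1 library and the grey bar is the gap. THP1 lies lowest for every gene by construction, at 0 for EMD, ELOVL6, KDM6A, MACC1 and FUNDC1, while PPA1 and DDX21 keep 129 and 101 normalised CPM.

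THP1 had fewer such genes than the other lines had by the same rule. The count was 53 for THP1, against 101 for HL60 (1.36% of 7439), 275 for K562 (3.62% of 7602) and 311 for SUDHL4 (4.04% of 7707). Genes with 0 reads in one line and the level in the other 3 numbered 5 in THP1, against 20 in HL60, 54 in K562 and 109 in SUDHL4. Small differences went the other way. Of the 7442 genes, 3160 (42.5%) were lower in THP1 than in each other line by any amount, while the same share was 16.6% for HL60, 25.2% for K562 and 28.4% for SUDHL4. That share depends on the scaling between libraries. With the libraries scaled to equal housekeeping levels it was 31.0% for THP1, against 28.98% for HL60, 27.3% for K562 and 25.4% for SUDHL4, while the count of THP1-low genes stayed the smallest of the 4 lines at 36, against 124, 277 and 296.

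The X chromosome held 5 of the 15 genes with gaps of 3 log2 units or more, 4 of them as pairs that lie side by side. EMD encodes emerin, a protein of the inner nuclear membrane whose absence causes an X-linked muscular dystrophy. It had 0 reads in THP1 (at most 0.113 by its interval), against 79.3 in HL60, 128 in K562 and 64.1 in SUDHL4. Set against a limit of 3 reads in the THP1 library, which is listed as 0.107, EMD was at least 600-fold lower in THP1 than in SUDHL4. Its neighbour FLNA encodes filamin A, which crosslinks actin filaments beneath the cell membrane. FLNA was at 14.7 in THP1 (13.4 to 16.04), against 2449 in HL60, 1054 in K562 and 360.4 in SUDHL4. THP1 was 24.5-fold below the lowest other line (95% counting interval 22.4 to 27.0). EMD and FLNA lie at Xq28, on opposite strands, with EMD at positions 154379197 to 154381523 and FLNA at 154348524 to 154374638 of GRCh38.

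Genes on either side of this pair were transcribed in THP1. RPL10, a ribosomal protein gene beside EMD, was at 1283 in THP1, against 1534 in HL60, 2098 in K562 and 2079 in SUDHL4. On the side of FLNA, IRAK1, a kinase of Toll-like receptor signalling, was at 301 in THP1, against 718 in HL60, 244 in K562 and 281 in SUDHL4. The gap in levels was therefore narrow, covering FLNA and EMD among the genes listed there. TKTL1, a transketolase-like gene that the file lists directly before FLNA, went the opposite way, at 47.9 in THP1, against 0 reads in HL60, 0.409 in K562 and 0 reads in SUDHL4.

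The other pair was FUNDC1 and KDM6A at Xp11.3. KDM6A, also called UTX, encodes a histone demethylase that removes the repressive Polycomb mark, and it is a tumour suppressor in leukaemia. It had 0 reads in THP1, against 22.4 in HL60, 37.4 in K562 and 23.01 in SUDHL4, and was at least 209-fold lower in THP1. FUNDC1, a receptor on the outer mitochondrial membrane that marks mitochondria for autophagy, had 0 reads in THP1, against 11.4 in HL60, 22.9 in K562 and 17.5 in SUDHL4. That is at least 107-fold lower in THP1. FUNDC1 spans 44523639 to 44543001 and KDM6A 44873177 to 45112602 on chromosome X of GRCh38.

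The stretch directly around this pair was almost empty of reads in THP1. EFHC2, MAOA and DUSP21, which the file lists beside these genes, each had 0 reads in THP1. They had 0 reads in HL60 and SUDHL4 as well and only 2.16, 2.53 and 0.692 in K562, so their zeros in THP1 set it apart from K562 alone. RP2, 8 places beyond KDM6A and encoding a protein of photoreceptor cilia, was at 36.0 in THP1, against 34.3 in HL60, 9.45 in K562 and 29.5 in SUDHL4. No other gene with 5 or more in HL60, K562 and SUDHL4 lay between FUNDC1 and KDM6A. Of the 53 genes, these 4 were next to another in the order of genes that had the level in HL60, K562 and SUDHL4.

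The promoters of these pairs and of MACC1, which also had 0 reads in THP1, are shown for the CpG dinucleotides they hold, since most promoters of widely transcribed genes are CpG islands. Each is the 250 bases before the RefSeq start site on GRCh38.p14, read 5′ to 3′ along the gene, with every CG in capitals. The windows are chrX:154379045-154379294 for EMD on the plus strand, chrX:154374635-154374884 for FLNA on the minus strand, chrX:44872938-44873187 for KDM6A on the plus strand, chrX:44542860-44543109 for FUNDC1 on the minus strand and chr7:20217385-20217634 for MACC1 on the minus strand.
EMD: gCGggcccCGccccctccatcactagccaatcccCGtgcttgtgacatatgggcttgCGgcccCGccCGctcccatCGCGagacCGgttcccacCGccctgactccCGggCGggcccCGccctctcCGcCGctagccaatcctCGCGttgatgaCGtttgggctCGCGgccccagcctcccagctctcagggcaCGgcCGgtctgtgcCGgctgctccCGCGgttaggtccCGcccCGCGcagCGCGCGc
FLNA: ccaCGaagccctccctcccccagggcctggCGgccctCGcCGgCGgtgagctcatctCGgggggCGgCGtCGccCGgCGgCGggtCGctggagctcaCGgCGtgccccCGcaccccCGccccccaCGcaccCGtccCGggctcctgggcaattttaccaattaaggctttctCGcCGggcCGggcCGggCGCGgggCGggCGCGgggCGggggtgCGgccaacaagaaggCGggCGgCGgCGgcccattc
KDM6A: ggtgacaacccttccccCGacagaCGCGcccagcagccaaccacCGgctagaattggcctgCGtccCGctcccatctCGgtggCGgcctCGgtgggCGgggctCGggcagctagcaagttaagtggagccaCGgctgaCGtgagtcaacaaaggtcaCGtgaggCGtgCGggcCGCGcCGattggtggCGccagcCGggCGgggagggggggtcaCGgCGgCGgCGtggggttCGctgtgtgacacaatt
FUNDC1: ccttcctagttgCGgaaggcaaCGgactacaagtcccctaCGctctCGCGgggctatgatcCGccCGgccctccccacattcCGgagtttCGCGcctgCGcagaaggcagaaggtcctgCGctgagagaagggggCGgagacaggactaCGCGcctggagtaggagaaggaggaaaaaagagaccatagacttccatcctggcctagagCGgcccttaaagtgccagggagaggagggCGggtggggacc
MACC1: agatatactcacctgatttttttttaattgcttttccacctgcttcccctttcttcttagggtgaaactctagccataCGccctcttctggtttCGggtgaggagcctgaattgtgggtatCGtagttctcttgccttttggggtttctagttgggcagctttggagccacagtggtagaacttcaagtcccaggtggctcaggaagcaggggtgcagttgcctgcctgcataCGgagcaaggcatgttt
EMD held 31 CG dinucleotides and FLNA 35, at a GC content of 74.0% and 78.4%. KDM6A had 27 and FUNDC1 17, while MACC1 had only 4 at a GC content of 49.2%. Among these genes, those with 0 reads in THP1 thus had both CpG-dense and CpG-sparse promoters.

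RefSeq gave a promoter for 42 of the 50 protein-coding THP1-low genes, or 84.0%, and for 6081 of 7144 coding genes with the level. A window counted as CpG-rich at a GC content of 50% or more and an observed over expected CpG ratio of 0.6 or more. By this measure 33 of the 42 were CpG-rich (78.6%), against 85.4% of the 6081. The median GC content was 64.4% for the THP1-low genes, beside 65.2% for the 6081. Promoter composition therefore lay close to that of other genes transcribed in the 3 lines.

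The other X-linked members stood alone. IL2RG encodes the common gamma chain shared by several interleukin receptors, which lymphocytes need to develop. It was at 3.56 in THP1 (2.93 to 4.25), against 184 in HL60, 88.6 in K562 and 99.9 in SUDHL4, which is 24.9-fold below the lowest other line (20.8 to 30.4). RPSAP15 is a processed pseudogene of the ribosomal protein gene RPSA, at 6.28 in THP1, against 116 in HL60, 129 in K562 and 55.7 in SUDHL4. Another RPSA pseudogene, RPSAP47 on chromosome 8, was at 0.168 in THP1 (5 reads), against 144 in HL60, 105 in K562 and 50.3 in SUDHL4. Both are near-identical to RPSA, so reads of the parent gene can be counted there and their levels are uncertain. RPSA itself was at 2282 in THP1, against 3027 in HL60, 2429 in K562 and 2436 in SUDHL4. Chromosome X carried 6 of the 53 genes, or 11.3%, and 3.17% of the genes with the level, and 5 of those 6 lay 3 log2 units or more below the lowest other line.

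Beyond the X chromosome, ELOVL6 and MACC1 were the genes with 0 reads in THP1. ELOVL6 elongates saturated and monounsaturated fatty acids. It had 0 reads in THP1, against 44.7 in HL60, 116 in K562 and 29.2 in SUDHL4, at least 273-fold lower in THP1. ELOVL6 lies on chromosome 4 (110045846 to 110199199), and several genes listed near it, though not all, were lowest in THP1 as well, by less. PLA2G12A was at 6.58 in THP1, against 23.5 in HL60, 98.9 in K562 and 42.8 in SUDHL4, and GAR1 at 19.5 in THP1, against 89.1 in HL60, 83.5 in K562 and 35.1 in SUDHL4. The nearby gene ALPK1 was instead highest in THP1, at 14.3 against 10.5 in HL60, 1.76 in K562 and 10.3 in SUDHL4. TIFA, also listed near ELOVL6, was at 15.9 in THP1, above its 7.75 in K562. ELOVL5, a related elongase, was at 206 in THP1, against 406 in HL60, 485 in K562 and 226 in SUDHL4. Of the 31 cholesterol and fatty acid synthesis genes with the level, ELOVL6 was the only THP1-low one, and 12 were lower in THP1 than in each other line, beside 0.712% and 42.5% of all genes.

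MACC1, a regulator of the growth factor receptor gene MET first described in colon cancer, had 0 reads in THP1. It was at 16.8 in HL60, 25.9 in K562 and 45.3 in SUDHL4, and was at least 157-fold lower in THP1 than in HL60. Its divergent transcript MACC1-DT also had 0 reads in THP1, against 0.352 in HL60, 2.05 in K562 and 10.0 in SUDHL4. Of the genes listed near it, POLR1F was at 32.2 in THP1, against 79.9 in HL60, 63.3 in K562 and 75.4 in SUDHL4, and SP4 at 4.08 in THP1, against 14.3 in HL60, 12.4 in K562 and 13.6 in SUDHL4. SNX13 was at 28.2 in THP1, against 25.4 in HL60, 33.9 in K562 and 68.6 in SUDHL4. MACC1 spans 20134655 to 20217404 on chromosome 7.

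Among the cytoskeletal and junction genes, the remaining members kept some transcript. JUP, which encodes plakoglobin of desmosomes and adherens junctions, was at 3.99 in THP1 (3.32 to 4.72), against 59.1 in HL60, 193 in K562 and 121 in SUDHL4. Its relative CTNNB1, which encodes beta-catenin, was instead highest in THP1, at 388 against 123 in HL60, 245 in K562 and 166 in SUDHL4. ADD3, the gamma subunit of adducin that caps actin at the spectrin skeleton, was at 11.99 in THP1, against 67.4 in HL60, 97.6 in K562 and 155 in SUDHL4. Its partner subunits were not low in this way, with ADD1 at 129 and ADD2 at 48.4 in THP1, against a lowest other level of 81.3 and 37.4. EPB41, protein 4.1 of the red cell membrane skeleton, was at 31.9 in THP1, against 141 in HL60, 430.3 in K562 and 215 in SUDHL4. NUP153, a nucleoporin of the nuclear basket, was at 49.1 in THP1, against 215 in HL60, 343 in K562 and 209 in SUDHL4.

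Surface proteins formed another group. CD59 blocks assembly of the complement pore on the cell's own membrane, and it was at 9.98 in THP1 (8.91 to 11.1), against 135 in HL60, 160.4 in K562 and 128 in SUDHL4. That is 12.9-fold below the lowest other line (11.5 to 14.5), and the other 3 lines were close to each other. MPZL1, an immunoglobulin-domain glycoprotein, was at 2.98 in THP1, against 46.2 in HL60, 176 in K562 and 43.6 in SUDHL4. KCNH2, a voltage-gated potassium channel, was at 2.12 in THP1, against 153 in HL60, 413 in K562 and 13.3 in SUDHL4, so THP1 stood much closer to SUDHL4 than to the myeloid lines. SLC6A6, the taurine transporter, was at 10.8 in THP1, against 52.9 in HL60, 105 in K562 and 47.0 in SUDHL4. TMEM241, a multipass membrane protein gene on chromosome 18, was at 1.51 in THP1, against 12.9 in HL60, 11.8 in K562 and 12.4 in SUDHL4. Of 16 leukocyte surface and adhesion genes with the level, CD59 was the only THP1-low one, beside 0.712% of all genes with the level.

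Transcription factors and chromatin genes made up 8 of the 53, with KDM6A and MACC1 at 0 reads. Roles were assigned to the 53 genes only, so this count has no share over all genes to stand beside. KDM6B, the related demethylase, was also lowest in THP1, at 4.48 against 11.6 in HL60, 10.3 in K562 and 19.7 in SUDHL4, a smaller gap of -1.05 log2 units. LEF1, which carries Wnt signals to DNA and acts in lymphoid development, was at 1.42 in THP1, against 9.54 in HL60, 25.7 in K562 and 54.7 in SUDHL4. PITX1, a homeobox factor of limb development, was at 3.80 in THP1, against 106 in HL60, 35.1 in K562 and 74.2 in SUDHL4. HIVEP1, a large zinc finger protein that binds enhancers, was at 1.70 in THP1, against 10.5 in HL60, 25.6 in K562 and 18.5 in SUDHL4. The zinc finger genes ZNF37A, ZNF714 and ZNF607 were at 2.49, 0.749 and 0.688 in THP1, against lowest other levels of 17.9, 9.30 and 8.13. They are 3 of 202 genes with the level that carry a zinc finger family symbol, which HIVEP1 does not, a set whose median difference between THP1 and the middle of the other 3 lines was -0.10 log2 units, against -0.32 over all genes. Of 60 histone methylation genes and of 37 tumour suppressors with the level, KDM6A was the only THP1-low one in each list. Among all genes with the level 0.712% were THP1-low, and 1 gene is too few to set either list apart from that share.

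RNA-binding and translation genes included some with high levels elsewhere. IGF2BP3, an oncofetal protein that stabilises mRNA, was at 2.28 in THP1 (1.78 to 2.84), against 74.9 in HL60, 153 in K562 and 152 in SUDHL4, or 32.9-fold below the lowest (26.3 to 42.4). Its family was split across the lines. IGF2BP2 was highest in THP1, at 178 against 0.553 in HL60, 108 in K562 and 0.312 in SUDHL4, while IGF2BP1 was at 0.168 in THP1, against 176 in HL60, 320 in K562 and 0 reads in SUDHL4. DDX21, a nucleolar RNA helicase needed for ribosome production, was at 101 in THP1 (97.4 to 104), against 745 in HL60, 986 in K562 and 676 in SUDHL4. Its neighbouring relative DDX50 was lower in THP1 too, at 24.6 against 74.0 in HL60, 116 in K562 and 72.1 in SUDHL4. Both lie on chromosome 10, where 84.1% of the genes with the level were lower in THP1 than in each other line. The remaining members of this group were LARP4, SNRNP48, VARS2 and EEF1E1. LARP4, which binds poly(A) tails, was at 27.3 in THP1, against 124 in HL60, 158 in K562 and 240 in SUDHL4. SNRNP48, of the minor spliceosome, and EEF1E1, of the complex that holds tRNA synthetases together, were at 4.63 and 3.04 in THP1, against lowest other levels of 27.1 and 20.4. VARS2 charges mitochondrial tRNA with valine and was at 4.54 in THP1, against 54.3 in HL60, 45.8 in K562 and 38.4 in SUDHL4. The cytosolic enzyme VARS1 was at 382 in THP1, against 579 in HL60, 737 in K562 and 240.1 in SUDHL4. No member was among the 82 cytosolic ribosomal protein genes with the level. With 0.712% of all genes with the level THP1-low, a list of this size can easily hold none.

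Enzymes of amino acid metabolism were the group with the most members on a single pathway list. ASNS makes asparagine from aspartate, and leukaemia cells with little of it depend on asparagine from outside, the basis of asparaginase treatment. It was at 19.4 in THP1 (17.9 to 20.97), against 258 in HL60, 726 in K562 and 217 in SUDHL4, or 11.2-fold below the lowest other line (10.3 to 12.2). GOT1 and GOT2 are the cytosolic and mitochondrial aspartate aminotransferases of the malate-aspartate shuttle. GOT1 was at 12.7 in THP1, against 114 in HL60, 181 in K562 and 84.6 in SUDHL4. GOT2 was at 83.4 in THP1, against 365 in HL60, 338 in K562 and 548 in SUDHL4, and its gap of -2.004 log2 units was the smallest of the 53. BCAT1, the cytosolic branched-chain aminotransferase, was at 49.7 in THP1, against 284 in HL60, 512 in K562 and 602 in SUDHL4. KYAT1, a kynurenine aminotransferase that is not on the list, was at 1.85 in THP1, against 11.1 in HL60, 11.5 in K562 and 13.6 in SUDHL4.

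ASNS, GOT1, BCAT1 and GOT2 were 4 of 41 amino acid enzyme and transporter genes with the level, where 0.712% of all 7442 genes were THP1-low. The median difference of this list from the middle of the other 3 lines was -0.69 log2 units, beside -0.32 over all genes. Of the 41, 22 were lower in THP1 than in each other line, and 42.5% of all genes were. Genes below the 4-fold rule included SLC7A11, the cystine transporter, at 4.54 in THP1 against 16.6 in HL60, 56.0 in K562 and 17.9 in SUDHL4. PSAT1, of serine synthesis, was at 63.3 in THP1, against 344 in HL60, 247 in K562 and 193 in SUDHL4. GLUD1, glutamate dehydrogenase, was at 74.5 in THP1, against 266 in HL60, 182 in K562 and 294 in SUDHL4. GLUD1 and GOT1 lie on chromosome 10, where 84.1% of the genes with the level were lower in THP1 than in each other line. The direction was not shared by the whole list, since SLC38A2, a neutral amino acid transporter, was at 87.0 in THP1, against 62.5 in HL60, 196 in K562 and 62.9 in SUDHL4. BCAT2, the mitochondrial relative of BCAT1, was at 16.5 in THP1, against 51.6 in HL60, 37.4 in K562 and 6.70 in SUDHL4.

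**Figure D2:**
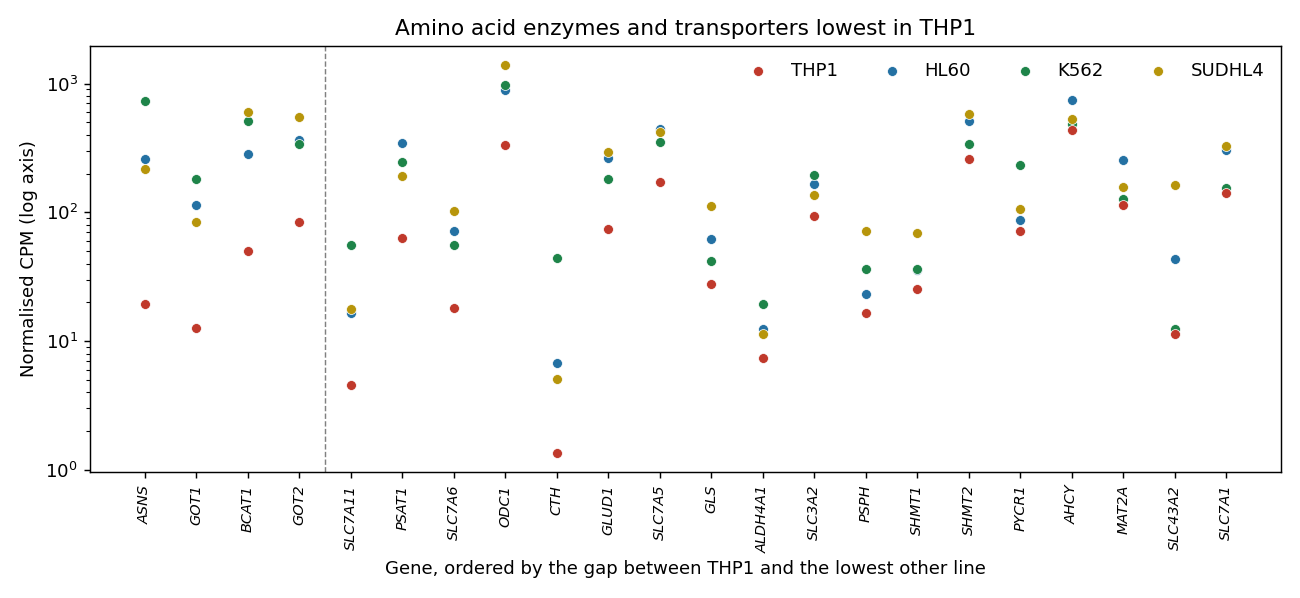
Levels in normalised CPM (log axis) of the 22 amino acid enzyme and transporter genes that were lowest in THP1, of 41 with 5 or more in HL60, K562 and SUDHL4; each point is 1 library, and genes left of the dashed line pass the 4-fold rule. ASNS, GOT1, BCAT1 and GOT2 stand at 19.4, 12.7, 49.7 and 83.4 in THP1, and the gap narrows to the right until THP1 at 142 nearly meets K562 at 154 for SLC7A1.

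The promoters of 3 of these 4 enzymes share a short motif, which is why they are printed. The motif searched was TGATGNAA on either strand, the core of the C/EBP-ATF response element through which amino acid shortage is known to act on ASNS. It was found within 250 bases upstream of ASNS, BCAT1, GOT1 and NUP153, in 4 of 42 THP1-low genes (9.52%), and in 72 of 6081 coding genes with the level (1.18%) and 3.19% of all 27305 promoters in the table. The motif was chosen after the genes were seen and is known from ASNS, so the match in ASNS was built into the count. The shares therefore cannot test for an excess among the THP1-low genes. A match is a run of letters, not a shown binding site. The 60-base windows below are from RefSeq on GRCh38.p14, read 5′ to 3′ along the gene, with the match in capitals. They cover chr7:97872443-97872502, chr12:24949116-24949175, chr10:99430789-99430848 and chr6:17706927-17706986, all on the minus strand.
ASNS: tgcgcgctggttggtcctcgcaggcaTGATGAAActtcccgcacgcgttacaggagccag
BCAT1: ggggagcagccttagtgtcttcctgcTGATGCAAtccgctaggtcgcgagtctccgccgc
GOT1: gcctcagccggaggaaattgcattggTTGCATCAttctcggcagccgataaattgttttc
NUP153: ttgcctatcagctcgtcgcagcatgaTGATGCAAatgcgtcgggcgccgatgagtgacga
The match begins 68 bases before the start site in ASNS, 48 in BCAT1, 198 in GOT1 and 35 in NUP153. In GOT1 the letters lie in the opposite orientation to the gene. GOT2 had no match in its window.

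Other enzymes of lipid, sugar and cofactor metabolism were low singly. MGAT3, which adds the bisecting sugar to N-glycans, was at 0.229 in THP1 (7 reads), against 43.6 in HL60, 13.9 in K562 and 61.5 in SUDHL4. SGMS1, a sphingomyelin synthase of the Golgi, was at 0.840 in THP1, against 11.01 in HL60, 136 in K562 and 28.3 in SUDHL4. PFKM, the muscle form of phosphofructokinase, was at 2.70 in THP1, against 16.04 in HL60, 45.2 in K562 and 265 in SUDHL4. The liver form PFKL was at 287 in THP1, against 359 in HL60, 129 in K562 and 147 in SUDHL4. PFKM was the only THP1-low gene of 21 glycolysis genes with the level, beside 0.712% of all genes with the level. NAMPT, the rate-limiting enzyme of NAD salvage, was at 28.8 in THP1, against 136 in HL60, 298 in K562 and 234 in SUDHL4. PPA1, the cytosolic inorganic pyrophosphatase, was at 129 in THP1, against 580.3 in HL60, 712 in K562 and 606 in SUDHL4.

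Mitochondrial and redox genes besides FUNDC1 were reduced but present. TFAM packages mitochondrial DNA and starts its transcription, and was at 26.1 in THP1, against 117 in HL60, 240 in K562 and 131 in SUDHL4. GLRX3, a glutaredoxin that handles iron-sulphur clusters, was at 33.3 in THP1, against 209 in HL60, 169 in K562 and 169.8 in SUDHL4. TAMM41, of cardiolipin synthesis, and PDZD8, a tether between the endoplasmic reticulum and mitochondria, were at 4.54 and 14.1 in THP1, against lowest other levels of 22.8 and 65.8. FUNDC2, the relative of FUNDC1, was not low, at 63.1 in THP1 against 67.8 in HL60, 101 in K562 and 50.7 in SUDHL4.

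The 7 signalling and protein turnover genes ranged from 0.0458 to 20.7 in THP1. RAP2A, a Ras-like GTPase, was at 0.657 in THP1 (21 reads), against 19.5 in HL60, 14.7 in K562 and 61.6 in SUDHL4, while its relative RAP2B was at 38.9 in THP1, against 37.5 in HL60, 97.5 in K562 and 45.4 in SUDHL4. SPRED1, an inhibitor of Ras signalling that is lost in some tumours, was at 0.321 in THP1 (10 reads), against 8.90 in HL60, 45.6 in K562 and 28.1 in SUDHL4. DNAJC12, a co-chaperone, had 1 read in THP1 and was listed at 0.0458, against 28.1 in HL60, 23.9 in K562 and 6.77 in SUDHL4. With so few reads its ratio to SUDHL4 of 148 had a counting interval of 39.2 to 8780, so the size of that gap is poorly fixed. MAP3K8, a kinase of inflammatory signalling, was at 1.27 in THP1, against 11.7 in HL60, 9.61 in K562 and 13.6 in SUDHL4. TBC1D4, a Rab GTPase-activating protein of insulin-stimulated glucose uptake, was at 2.83 in THP1, against a lowest other level of 16.4, and its relative TBC1D1 was at 203 in THP1. IDE, the insulin-degrading enzyme, was at 20.7 in THP1, against 131 in HL60, 109 in K562 and 136 in SUDHL4. GNB1L, a WD repeat protein, was at 1.36 in THP1, against a lowest other level of 9.49. ALKBH2, which repairs alkylated DNA bases, was at 4.35 in THP1, against 21.3 in HL60, 20.6 in K562 and 42.7 in SUDHL4. It was the only THP1-low one of 67 DNA repair genes with the level, beside 0.712% of all genes with the level. The non-coding gene MIR3667HG was at 0.413 in THP1 (13 reads), against 14.8 in HL60, 7.27 in K562 and 7.69 in SUDHL4.

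For 23 relatives of these genes, looked up once the members were known, none met the 4-fold rule. Over all genes with the level 0.712% met it. THP1 was the lowest line for 10 of the 23, a share near the 42.5% of all genes with the level, and the highest for 2, IGF2BP2 and CTNNB1.

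The 4-fold margin separates genes of nearly equal gaps. Just inside it were NUP153 (-2.07), SLC6A6 (-2.03), ALKBH2 (-2.01) and GOT2 (-2.004). Just outside were PALS2 (-1.99), ATAD3B (-1.99), DDIT4 (-1.97) and CHUK (-1.96).

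The THP1-low genes were unevenly placed along the genome. Chromosome 10 held 12 of them, or 22.6%, while 3.74% of the genes with the level lie there. They were ZNF37A, MAP3K8, SGMS1, TFAM, DNAJC12, DDX21, PPA1, IDE, GOT1, ADD3, PDZD8 and GLRX3, and they spread over both arms. The genes low in another single line were not placed this way, with 4.95% on chromosome 10 for HL60, 4.73% for K562 and 3.22% for SUDHL4. All 12 had gaps under 3 log2 units, from -2.89 in DNAJC12 to -2.12 in TFAM. The gap is on log2(value + 1), so a low level in the other lines limits it. As a plain ratio to the lowest other line, DNAJC12 was 148-fold lower in THP1, poorly fixed at 1 read, and SGMS1 13.1-fold. Of the 15 genes with gaps of 3 log2 units or more, 5 were on the X chromosome. Chromosomes 2, 14, 20 and 21 held no THP1-low gene.

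The whole of chromosome 10 was low in THP1, not only these genes. Over its 276 genes with the level, the median difference between THP1 and the middle of the other 3 lines was -1.28 log2 units, against -0.29 over all other chromosomes. Without the 12 THP1-low genes the chromosome 10 median was -1.25. Of the 276, 232 (84.1%) were lower in THP1 than in each other line. In all, 103 of the 276 (37.3%) lay at least 1 log2 unit below the lowest other line, against 513 of 7378 genes (6.95%) over the genome. All 14 intervals of 10 Mb along chromosome 10 had a negative median, between -1.83 and -0.61. Each other line was set against the median of its own 3 other lines, THP1 among them. On chromosome 10 this gave 0.31 in HL60, 0.17 in K562 and 0.23 in SUDHL4. Those medians are over 249, 259 and 258 genes, and low THP1 levels can raise them. The next lowest chromosome in THP1 was 18 at -0.90, and the highest was 8 at 0.30.

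**Figure D3:**
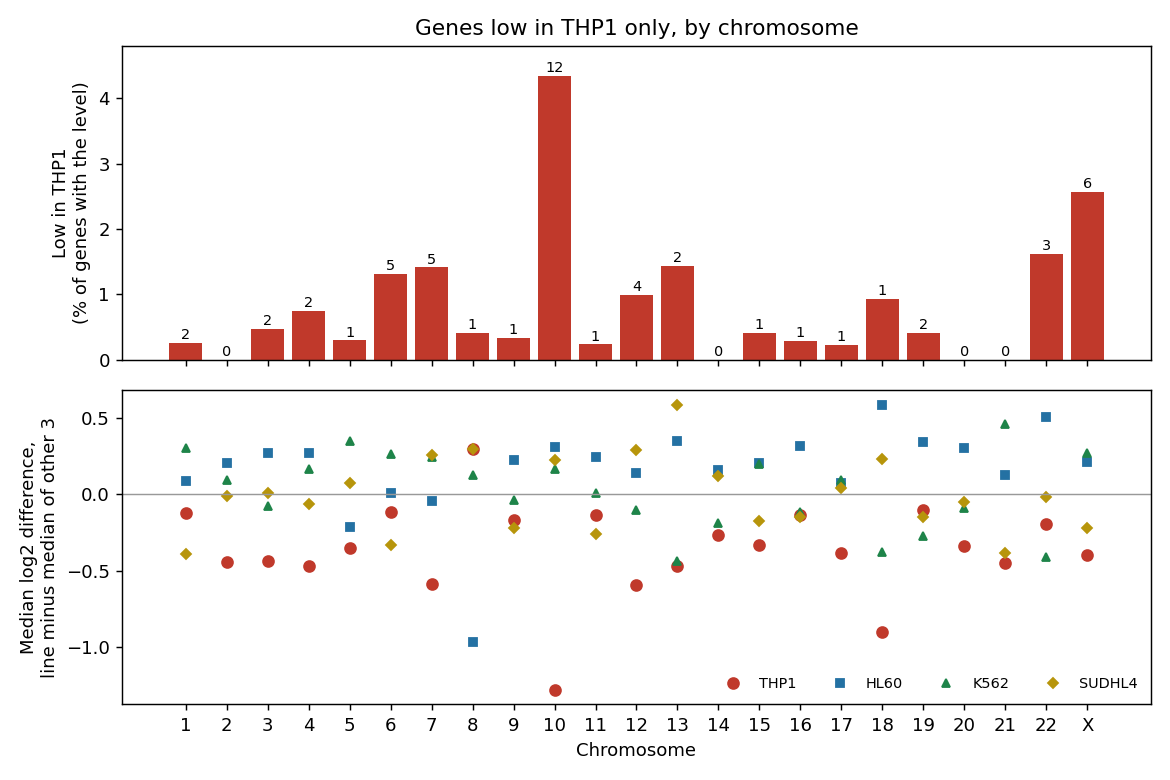
Upper panel, share of the genes at 5 or more in HL60, K562 and SUDHL4 that were THP1-low, in percent, with the number above each bar; lower panel, median log2 difference between each line and the median of the other 3, per chromosome. Chromosome 10 has the tallest bar, with 12 genes, and the lowest THP1 point, at -1.28.

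Chromosome 6 showed the same shift over its beginning only. The first 30 Mb held 60 genes with the level. Of these, EEF1E1, SNRNP48, HIVEP1 and NUP153 were THP1-low, beside 0.712% of all genes with the level. The median difference over the 60 genes was -1.34 log2 units in THP1. Of the 60, 54 (90%) were lower in THP1 than in each other line. In the remaining 319 genes the median was 0.01, and 26.02% were lower than in each other line. VARS2, just past that point at 30908242 on GRCh38, was also THP1-low. Low values ran on to about VARS2, though not in every gene. Between the boundary and VARS2, POLR1H and FLOT1 were at -1.93 and -1.98. In the same stretch PPP1R10 was at -0.31, and HLA-E went the other way at 1.31. The 30 Mb boundary was chosen after the running values were seen. Single members lay far below the median of their interval of 10 Mb, as with DNAJC12 at -4.57 in an interval at -1.44 and GOT1 at -3.07 in one at -1.42. The part of the regional shift in each gap was not tested.

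**Figure D4:**
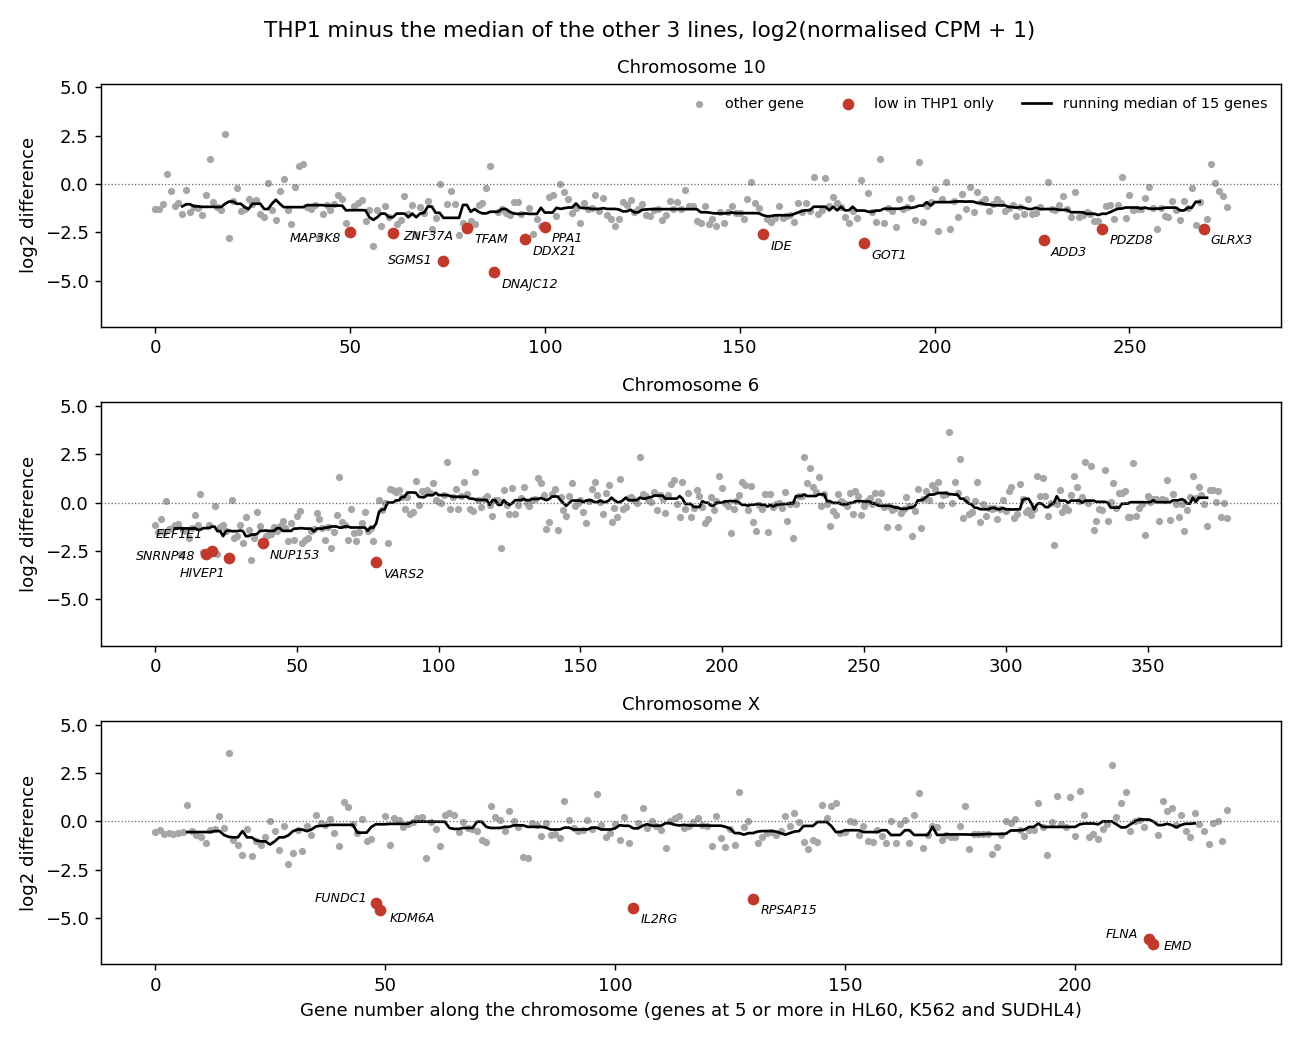
Difference between THP1 and the median of HL60, K562 and SUDHL4 in log2(normalised CPM + 1) for each gene with the level, in order along chromosomes 10, 6 and X; red points are THP1-low genes and the line is the running median of 15 genes. The line stays below 0 along all of chromosome 10, steps up near 0 after the start of chromosome 6, and on chromosome X the red points lie far below a line that runs between -1.20 and 0.10.

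The X-linked genes were different in this respect. The median difference over 234 genes of chromosome X with the level was -0.40, near the -0.32 of all genes, and the intervals of 10 Mb that hold the pairs had medians of -0.13 (FUNDC1 and KDM6A) and -0.12 (FLNA and EMD). Their losses therefore stood out from their surroundings. Of the 6 X-linked genes, 3 had 0 reads in THP1, against 0 of the 12 on chromosome 10.

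The 6 mixtures took no part in choosing the genes, so their observed levels are separate, while the predictions rest on the pure libraries used for the choice. The share of RNA from each line in a mixture was fitted on 100 signature genes per line, none of them THP1-low, and the THP1 share came out at 28.7%, 23.9%, 35.2%, 31.3%, 34.0% and 27.6% in mixtures 1 to 6. The fitted share was 0% for SUDHL4 in mixture 3, 0.013% for K562 in mixture 4 and 0.19% for HL60 in mixture 5. Those lines therefore add next to nothing to the predictions for those mixtures. The shares depend on the scaling, and the THP1 share of mixture 3 was 31.0% with housekeeping scaling. The level of each gene was then predicted from the pure profiles. In bulk RNA of this kind, fewer expressing cells and less RNA per cell cannot be told apart. Summed over the 53 genes, the observed level was 0.978, 0.866, 1.00, 1.00, 0.873 and 0.868 times the predicted one in mixtures 1 to 6. The median ratio per gene was 0.925, 0.931, 0.979, 1.02, 0.900 and 0.892 for the THP1-low genes, below the 0.990, 1.00, 1.01, 1.04, 0.966 and 0.989 of all genes with the level in each mixture. The observed level was within 2-fold of prediction for 314 of 318 values. Over the 11717 genes at 5 or more in a pure line, 0.358%, 2.58%, 1.31%, 2.47%, 1.86% and 0.546% lay beyond 2-fold in mixtures 1 to 6, so staying within 2-fold is not particular to the THP1-low genes.

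A gene that THP1 does not transcribe should be present in a mixture only through the other lines. For the 53 genes, the observed level divided by the amount predicted from HL60, K562 and SUDHL4 alone had a median of 0.954, 0.954, 1.04, 1.04, 0.913 and 0.916 in mixtures 1 to 6. Over all 7442 genes with the level, this ratio, which leaves out the part predicted from THP1, had medians between 1.24 and 1.45. Other chromosome 10 genes lay between, at medians of 1.05 to 1.24 over the mixtures, and other genes of the first 30 Mb of chromosome 6 at 1.07 to 1.31. Between 47 and 53 of the THP1-low genes were under the median of all genes in each mixture. These ratios use the same pure libraries that chose the genes, but other libraries for the observed values. Where a mixture adds up its lines, low ratios for the THP1-low genes follow from the way they were chosen. The order of the gene groups is therefore no separate evidence for the low levels in THP1. The shares were fitted as a sum of the lines, so whether the mixtures added up in this way was not tested.

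**Figure D5:**
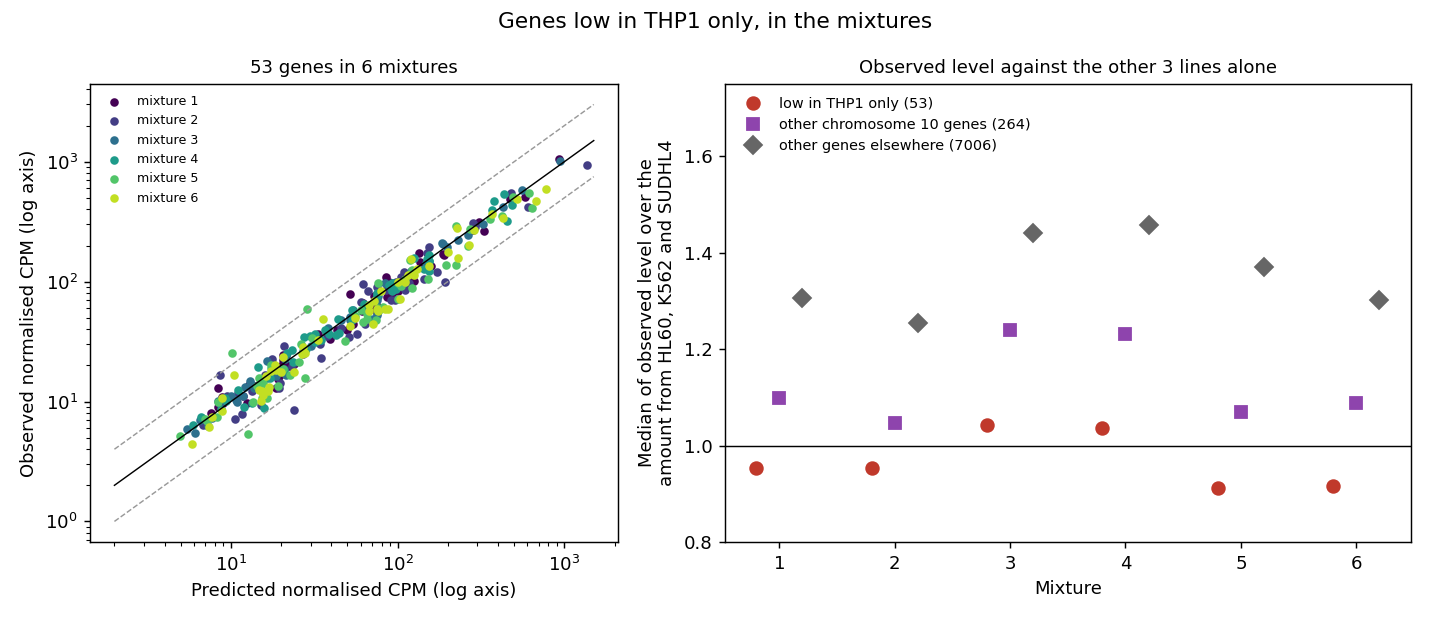
Left, observed against predicted level of the 53 genes in each of 6 mixtures (log axes, normalised CPM), with the solid line at equality and dashed lines at 2-fold; right, median over genes of the observed level divided by the amount from HL60, K562 and SUDHL4 alone. The THP1-low genes lie between 0.913 and 1.04 on the right, below the other chromosome 10 genes (1.05 to 1.24) and the other genes elsewhere (1.25 to 1.46).

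Single genes followed the prediction to different degrees. EMD was observed at 65.9, 83.1, 62.8, 48.98, 97.1 and 84.0 in mixtures 1 to 6, against predictions of 62.3, 66.5, 64.1, 43.9, 76.0 and 79.8. The observed level was above the prediction in 5 of the 6 and within 1.28-fold in all of them. FLNA was observed at 1045, 934, 1023, 318, 553 and 596, against predictions of 933, 1369, 945, 451, 614 and 772, and so lay below its prediction in 4 of 6. ASNS was at 270.0, 271, 300, 166, 353 and 342, against predictions of 279, 283, 326, 153, 420 and 426. KDM6A was at a median of 0.797 times its prediction (0.671 to 0.981), ELOVL6 at 0.900 (0.819 to 0.944) and MACC1 at 0.859 (0.691 to 1.06).

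Values beyond 2-fold came from 3 genes. ZNF37A was at 8.57 in mixture 2 and 5.34 in mixture 5, against predictions of 24.0 and 12.7. GNB1L was at 25.5 in mixture 5 against a prediction of 10.1, and PITX1 at 59.3 against 28.8. GNB1L and PITX1 were above their predictions in all 6 mixtures, with median ratios of 1.58 and 1.46.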

How the data were processed

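The deposited table holds signal values, called normalised CPM here, for 20591 genes in 10 bulk RNA libraries (4 pure lines and 6 mixtures). Per the submitters' processing notes, reads were handled with featureCounts and HISAT2 on hg19, and Cell Ranger ARC 2.0.0 is listed too; the annotation and the scaling between libraries are not given in the sources used here. In the deposited signal every value above 0 equalled a whole number of reads plus 0.5, times a step constant for its column, for 100% of values within a tolerance of 0.01, which gave the reads (24985570 to 36607612 per library). Plain CPM had been planned for, and the same rules were used on the signal instead.

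Genes were called on log2(value + 1) with a minimum of 5 and a margin of 2. Each line is 1 library, so no test was run. The members and the 41 gene lists were chosen with earlier results of these data known. Genes were named by size of gap, level, list membership, neighbourhood, nearness to the margin and distance from prediction, and the remaining members were added so that all 53 are accounted for; the 23 relatives were picked after the members were known. A gene with 0 reads was given a limit of 3 reads. Intervals of a level are exact Poisson and those of a ratio exact binomial (Clopper-Pearson), both at 95% and for counting error only. Shares of lines in mixtures came from non-negative least squares on 100 signature genes per line, tested on simulated data. Gene positions are from GENCODE release 29 (GRCh38), which matched 19923 genes by Ensembl ID, and promoters from RefSeq (GRCh38.p14), the first listed per gene. Reads of antisense or overlapping genes and of near-identical copies may be split, as the counting settings are not given. Calculations used Python 3.11.15 with numpy 2.4.6, pandas 2.3.3 and SciPy 1.17.1, and alternatives varied the scaling, minimum, margin, pseudocount, lines compared and signature genes.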

Additional observations from a re-analysis of the deposited data

How the results depend on the processing

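The count of 53 genes was 44 with plain reads per library total and 36 with housekeeping scaling, of which 43 and 36 were among the 53. It was 520 at a margin of 1, 15 at a margin of 3 and 23 with a pseudocount of 5. Taking the margin over 2 lines only gave 108 (HL60 and K562), 121 (HL60 and SUDHL4) and 175 (K562 and SUDHL4). Neighbouring members, 4 in the report, numbered 2 with no minimum level, 156 at a margin of 1, 2 with a pseudocount of 5, and 16, 10 and 19 over those pairs of lines. The zinc finger share was 0% at a margin of 3 and with a pseudocount of 5, and the chromosome 10 share was 0% at a margin of 3, where 15 genes are left; it stayed between 14.9% and 26.1% in the other settings. The chromosome 10 median was -1.21 with plain scaling and -1.08 with housekeeping scaling. The median of all genes, -0.32 in the report, was -0.26 and -0.09 in those settings, so chromosome 10 stayed 0.96 to 0.99 below it. The summed ratio of observed to predicted level was 0.855 in mixture 2 with plain scaling, 0.984 in mixture 1 with housekeeping scaling, and 0.971, 0.871, 0.993 and 0.841 in mixtures 1, 2, 3 and 5 with 50 signature genes. All 53 genes stayed below the lowest other line under both scalings and both pseudocounts. Depth limits the genes with 10 reads or fewer in THP1, whose fold is poorly fixed. No paired analysis was possible because each line is 1 library and no test was run.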

Other observations

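Some genes beside the deepest losses were higher in THP1 than in any other line, and they were picked after their values were seen. Near MACC1, the histone deacetylase gene HDAC9 was at 69.6 in THP1, against 0.285 in HL60, 0.0988 in K562 and 32.4 in SUDHL4, and the transcription factor gene TWIST1 at 8.27 in THP1, against 0 reads in HL60, 0.212 in K562 and 0 reads in SUDHL4. RENBP, 6 places before FLNA, was at 19.6 in THP1, against 3.64 in HL60, 6.99 in K562 and 2.00 in SUDHL4.

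Mitosis and spindle genes held no THP1-low gene among 38 with the level, where 0.712% of all genes with the level were THP1-low. Of the 38, 29 were lower in THP1 than in each other line, beside 42.5% of all genes. Their median difference was -0.93 log2 units, beside -0.32 over all genes. Genes of the chromosome 10 stretch 10q23 had a median of -1.52 over 7 genes, with none THP1-low and 6 lower than in each other line, beside -1.28 and 84.1% over chromosome 10.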
